A study of Rattus norvegicus with 2 samples.

Results

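Circular RNAs (circRNAs) of 6 genes of the postsynaptic side of excitatory synapses, Homer1, Shank2, Shank3, Grip1, Anks1b and Adgrb3, were compared between 2 spinal cord libraries, from rats with bone cancer pain (BCP) and from sham-operated rats. A circRNA was counted when the gene field of the deposited table held the symbol as an exact name, which gave 52 of 11599 circRNAs: 18 of Adgrb3, 17 of Anks1b, 7 of Grip1, 4 of Shank2 and 3 each of Homer1 and Shank3. In the BCP group, live Walker256 cells, a rat mammary carcinoma line passed through the peritoneal cavity of SD rats, were injected into the marrow of the tibia. The sham group had the same surgery with boiled cells. Both groups held 3 animals, kept for 21 days after surgery, with no genotype, sex or age given, and each group gave 1 library. The labels do not say whether the 3 animals were pooled. Ribosomal RNA had been removed and linear RNA digested with RNase R before sequencing.

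The postsynaptic density is a protein mesh under the membrane of excitatory synapses that holds glutamate receptors in place and ties them to the cytoskeleton and to signalling enzymes. Shank proteins are its deep scaffolds, and Homer proteins join them to metabotropic glutamate receptors. Grip1 is a multi-PDZ protein that binds AMPA receptors. Anks1b encodes AIDA-1, a partner of PSD-95 and NMDA receptors, and Adgrb3 encodes BAI3, an adhesion receptor for C1q-like proteins, so it is a membrane partner of the scaffold and not a scaffold itself. A circRNA is closed by back-splicing, in which the end of an exon joins the start of the same or an earlier exon, and many neuronal genes make them. A circRNA of Homer1 is a known product of rodent neurons. A read across such a back-splice junction is the unit counted here. It is given below as reads or as CPM, reads scaled to a library total of 1000000 from 113033 back-splice reads in sham and 78836 in BCP. Each circRNA is counted at a single junction, so levels were not divided by length.

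With 1 library per group there is no replicate check and no test of the condition. All differences below are between these libraries. Intervals are 95% exact binomial (Clopper-Pearson) ones, conditional on the summed reads where they belong to a ratio, and cover only counting error of reads taken as independent molecules. The smallest count in the table above 0 is 2, so 0 may hide a read and does not show absence, and no fold is given against it. Compared were circRNAs whose reads in sham and BCP summed to at least 10. The size rule asks for an interval that excludes 1 and, after adding 0.5 reads to each library, a difference of at least 2-fold. The 6 genes were selected on the ratios of circRNAs of Shank2, Shank3, Grip1 and Adgrb3 between these same libraries, which were already known, so every ratio here is a description.

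Together the 6 genes gave 1011 reads in sham and 566 in BCP. That was 8944 CPM in sham (8404 to 9510) and 7179 CPM in BCP (6602 to 7794), 1.25-fold lower in BCP (1.12 to 1.38). Anks1b, Adgrb3 and Grip1 had ratios of BCP to sham of 0.750, 0.739 and 0.696, with intervals below 1, and Homer1, Shank2 and Shank3 had ratios of 1.03, 0.997 and 1.13, with intervals that held 1. Differences between the genes were not tested, and ratios of Grip1 and Adgrb3 circRNAs were among those used to pick the genes. Their sums hold a Grip1 circRNA with 21 and 0 reads in sham and BCP and an Adgrb3 circRNA with 30 and 4. Their intervals below 1 are thus no support for a decrease. In spinal cord tissue, fewer cells of a type and less RNA per cell cannot be told apart.

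Anks1b, the most abundant of the 6, had 526 sham reads and 275 BCP reads, 4654 CPM (4265 to 5068) against 3488 CPM (3089 to 3925), 1.33-fold lower in BCP (1.15 to 1.55). Adgrb3 had 163 and 84 reads, 1442 CPM (1229 to 1681) and 1066 CPM (850 to 1319), 1.35-fold lower (1.03 to 1.78). Grip1 had 105 and 51 reads, 929 CPM (760 to 1124) and 647 CPM (482 to 850), 1.44-fold lower (1.02 to 2.05). For Adgrb3 and Grip1 the intervals of the levels in sham and BCP overlap, and those of Anks1b do not. Restricted to circRNAs with reads in both libraries, Anks1b remained lower (ratio of BCP to sham 0.820, 0.704 to 0.954), while the intervals of Adgrb3 (0.806, 0.601 to 1.07) and Grip1 (0.892, 0.616 to 1.28) held 1. This restriction keeps the Adgrb3 circRNA with 30 and 4 reads. It drops the Grip1 circRNA with 21 and 0 and the Anks1b circRNA with 42 and 0.

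Homer1 had 180 reads in sham and 129 in BCP, 1592 CPM (1368 to 1843) and 1636 CPM (1366 to 1944), a ratio of 1.03 (0.813 to 1.30). This ratio turned to 0.956 (0.756 to 1.20) with median-of-ratios scaling, which moved every log2 ratio by -0.10, so it has no settled direction. Shank2 had 23 and 16 reads, a level of 203 CPM in both libraries and a ratio of 0.997 (0.492 to 1.97). Shank3 had 14 and 11 reads, 124 CPM (67.7 to 208) and 140 CPM (69.7 to 250), a ratio of 1.13 (0.463 to 2.67). At this depth a 1.5-fold difference in either Shank gene lies inside the interval.

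**Figure D1:**
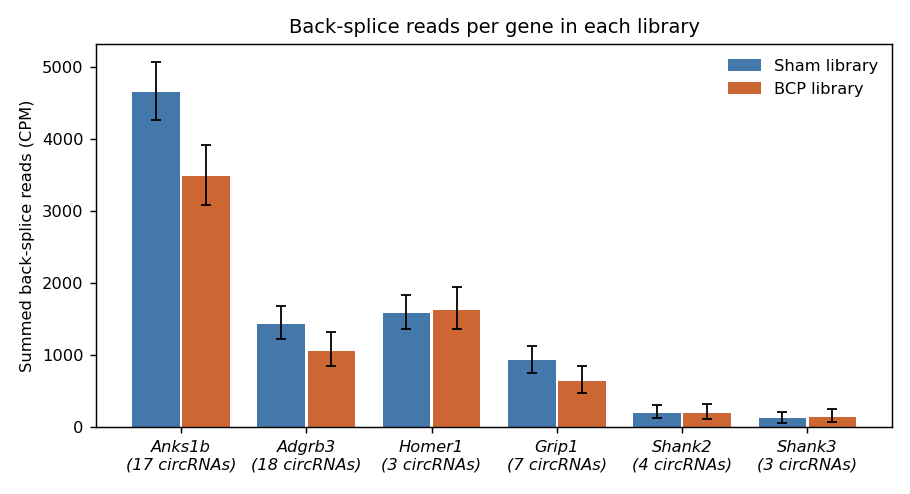
Summed back-splice reads in CPM of all circRNAs of each gene in the sham library and the BCP library, with exact 95% binomial intervals of counting error as bars; there is 1 library per group. Anks1b stood at 4654 CPM in sham and 3488 in BCP, Homer1 at 1592 and 1636, and both Shank genes at or under 203 CPM in either library.

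In descending order of the sham level the genes were Anks1b, Homer1, Adgrb3, Grip1, Shank2 and Shank3, and the order in BCP was the same. The intervals of Homer1 and Adgrb3 overlap in sham, and those of Shank2 and Shank3 overlap in both libraries. Among 3708 host names taken from circRNAs with a single name in the gene field, Anks1b ranked 15 in sham and 19 in BCP by summed reads. Homer1 ranked 60 and 59, Adgrb3 80 and 122, and Grip1 143 and 242. Shank2 ranked 797 and 925, and Shank3 1142 and 1101. By number of circRNAs Adgrb3 ranked 13 and Anks1b 25. None of the 6 gene sums met the size rule, which 8.06% of 2048 host gene sums met as higher and 8.01% as lower in BCP.

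Of the 52 circRNAs, 24 had at least 10 reads over both libraries and 28 did not. By the size rule 0 of the 24 were higher and 5 were lower in BCP, against 7.82% higher and 7.34% lower of 3502 circRNAs in the whole table. The rest, 19 circRNAs, met neither side. The median log2 ratio of the 24 was -0.24, and that of all 3502 was 0.02. Since the genes were picked with such ratios known, these shares are given side by side and nothing is read from them. The 5 lower circRNAs belonged to 5 different genes, every gene but Homer1, and 3 of the 5 were listed at 0 in BCP.

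Among the lower ones, the largest count was that of an Anks1b circRNA of 28.1 kb (chromosome 7, 31605670 to 31633781, build rn6), with 42 reads in sham (372 CPM, 268 to 502) and 0 in BCP. A Grip1 circRNA of 49.8 kb (chromosome 7, 64672723 to 64722547) had 21 reads in sham (186 CPM, 115 to 284) and 0 in BCP. A Shank3 circRNA of 2.26 kb (chromosome 7, 130522030 to 130524289) had 14 reads in sham (124 CPM, 67.7 to 208) and 0 in BCP. All 3 were thus seen in the sham library alone. With reads in both libraries, an Adgrb3 circRNA of 73.7 kb (chromosome 9, 31620318 to 31693992) went from 265 CPM (30 reads) to 50.7 CPM (4 reads), a ratio of 0.191 (0.0489 to 0.542). A Shank2 circRNA of 105 kb (chromosome 1, 217459831 to 217565160) had 18 and 2 reads, 159 and 25.4 CPM, a ratio of 0.159 (0.0179 to 0.665). Its interval came nearest to 1 among the 2 with reads in both libraries. Just outside the rule, another Adgrb3 circRNA (31330352 to 31342685) had 11 and 2 reads, 3.84-fold lower with an interval of 0.837 to 35.6. Anks1b circRNAs of 27.4 kb and 7.46 kb were 2.37-fold (0.840 to 8.22) and 2.32-fold lower (0.599 to 13.1). On the higher side, a Shank2 circRNA of 1.71 kb had a ratio of 2.58 (0.777 to 9.80). An Adgrb3 circRNA of 62.5 kb had a ratio of 2.29 (0.662 to 8.91).

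**Figure D2:**
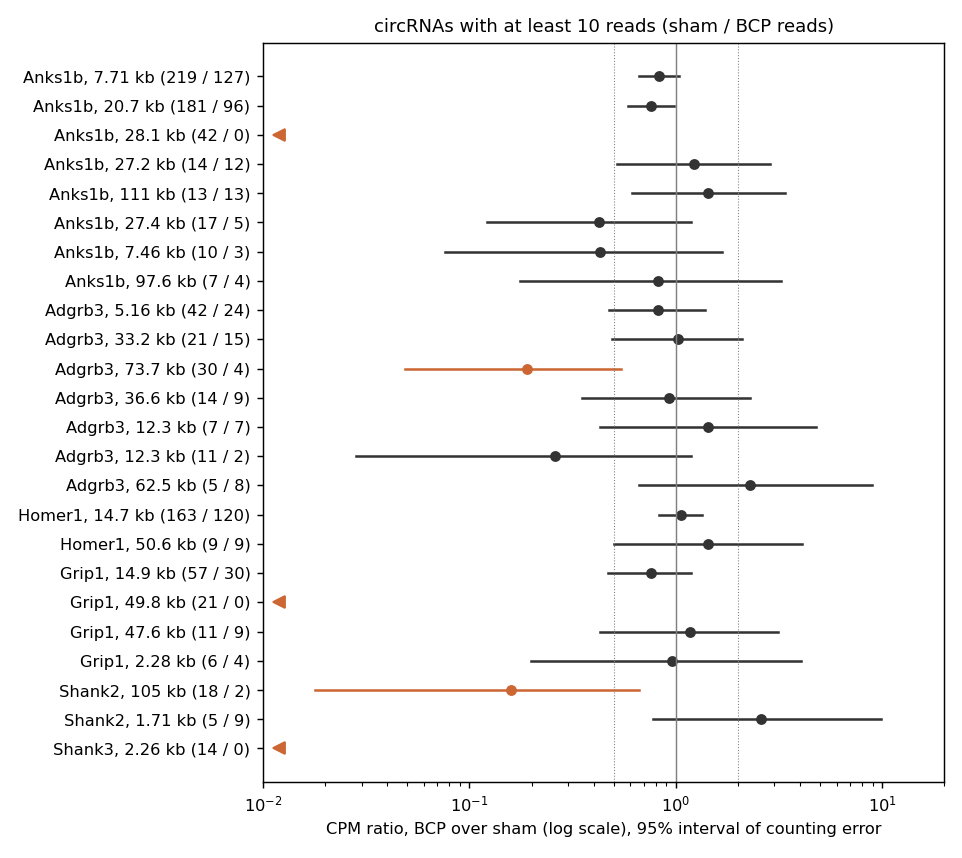
Ratio of CPM in BCP over sham on a log axis for the 24 circRNAs with at least 10 reads, each named by gene, genomic span and reads in sham and BCP, with exact 95% intervals of counting error; a triangle at the left edge marks 0 reads in BCP, where no ratio is given. The 5 circRNAs lower in BCP by the size rule are orange. The most abundant circRNAs of Anks1b, Homer1 and Grip1 have ratios of 0.831, 1.06 and 0.755, with intervals that held 1.

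The most abundant circRNAs of the set did not stand among the 5. For Anks1b these were circRNAs of 7.71 kb (chromosome 7, 30727478 to 30735182; 219 and 127 reads) and 20.7 kb (30714506 to 30735182; 181 and 96 reads). The first had 1937 CPM in sham (1690 to 2211) and 1611 in BCP (1343 to 1916), 1.20-fold lower (0.962 to 1.51). The second had 1601 CPM (1377 to 1852) and 1218 CPM (986 to 1487), 1.32-fold lower (1.02 to 1.70), so its interval excluded 1 while its ratio was under 2-fold. The leading Homer1 circRNA of 14.7 kb (chromosome 2, 22950023 to 22964734) had 163 and 120 reads, 1442 CPM (1229 to 1681) and 1522 CPM (1262 to 1820), a ratio of 1.06 (0.827 to 1.34). Over the whole table, the 7.71 kb circRNA of Anks1b ranked 29 in sham and 41 in BCP, and that of Homer1 51 and 47.

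How far a gene rested on a single circRNA differed. The leading Homer1 circRNA took 90.6% of the reads of its gene in sham (85.3 to 94.4) and 93.0% in BCP (87.2 to 96.8). The leading Grip1 circRNA of 14.9 kb (chromosome 7, 64707678 to 64722547), with 57 and 30 reads, took 54.3% (44.3 to 64.0) and 58.8% (44.2 to 72.4). For Anks1b the share of the 7.71 kb circRNA was 41.6% (37.4 to 46.0) and 46.2% (40.2 to 52.3). Adgrb3 was the most divided, and its leading circRNA of 5.16 kb (chromosome 9, 31437020 to 31442183; 42 and 24 reads) took 25.8% (19.2 to 33.2) and 28.6% (19.2 to 39.5). In these 4 genes the same circRNA led both libraries and its share did not differ beyond the intervals.

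In Shank2 and Shank3 the leading circRNA was a different one in each library. The 105 kb circRNA of Shank2 took 78.3% of the gene's reads in sham (56.3 to 92.5) and 12.5% in BCP (1.55 to 38.3). A short one of 1.71 kb (217459831 to 217461541), with 5 and 9 reads, took 21.7% (7.46 to 43.7) and 56.2% (29.9 to 80.2). All 14 sham reads of Shank3 came from the 2.26 kb circRNA. In BCP, the 11 Shank3 reads came from a 2.06 kb circRNA (chromosome 7, 130505466 to 130507520; 7 reads) and a 6.67 kb circRNA (130517615 to 130524289; 4 reads), both listed at 0 in sham. No Shank3 circRNA was seen in both libraries. The near-equal sums thus came from different circRNAs in Shank3 and from the same pair in different proportions, with 5 further BCP reads, in Shank2.

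**Figure D3:**
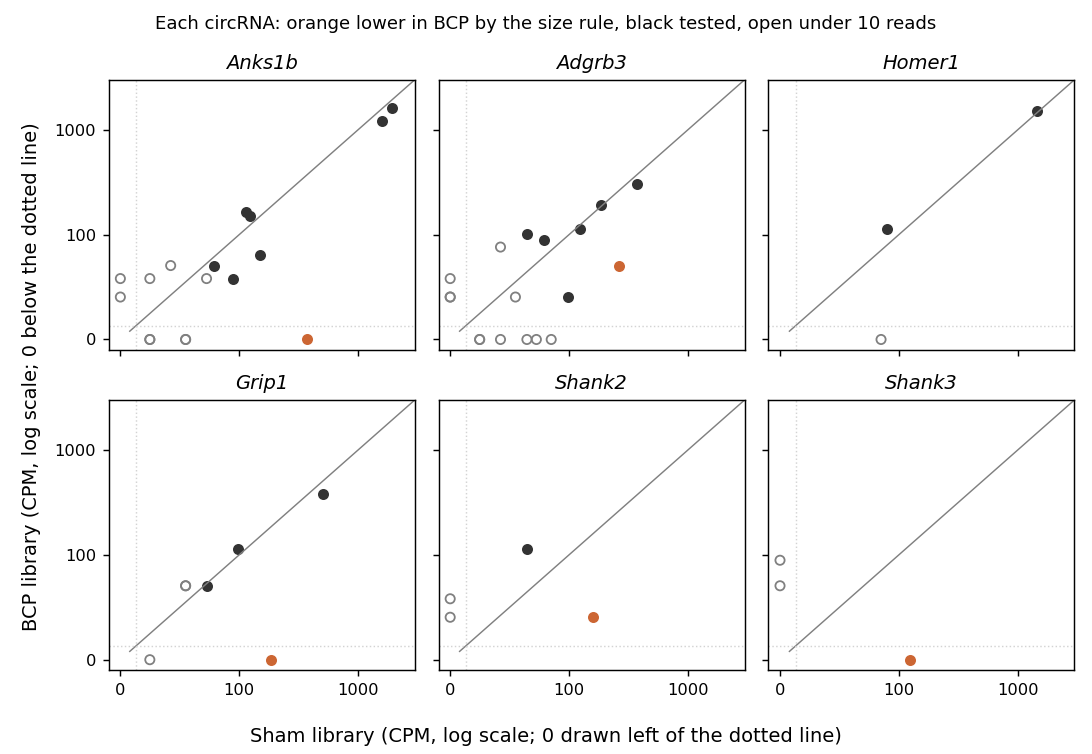
Level of each of the 52 circRNAs in the sham library (x axis) and the BCP library (y axis) in CPM on log axes, with counts of 0 drawn beyond the dotted lines and a diagonal at equal levels. The leading Homer1 circRNA lies close to the diagonal with 1442 and 1522 CPM, and the 4.75 kb one has 0 in BCP. The 3 Shank3 circRNAs lie on the axes of 0, and the 5 orange points (lower in BCP by the size rule) have at most 372 CPM in sham.

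Listing in each library was counted with and without the read minimum. Of the 52 circRNAs, 28 were listed in both libraries (53.8%), 15 in sham alone and 9 in BCP alone. Of all circRNAs, 41.2% were listed in both, 36.4% in sham alone and 22.4% in BCP alone. With at least 10 reads, 21 of the 24 were listed in both, 3 in sham alone and 0 in BCP alone. Of all 3502, 4.97% were listed in sham alone and 2.40% in BCP alone. The 15 seen in sham alone held 12.4% of the set's sham reads, against 15.9% over the table. The 9 seen in BCP alone held 4.95% of the set's BCP reads, against 12.4% over the table. Each of those 9 had 2 to 7 reads, too few for the size rule, and the 15 had 2 to 42 reads. The circRNAs of the set had a median of 8.5 reads over both libraries and all circRNAs a median of 5, and the sham library was 1.43 times as deep.

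The circRNAs of the set spanned 0.344 to 111 kb of genome with a median of 24.6 kb, and the median of all circRNAs was 9.71 kb. Adgrb3 had the longest median span (34.9 kb), then Grip1 (22.0 kb) and Anks1b (20.7 kb), and Shank3 the shortest (2.26 kb). A circRNA can lack introns, so span is not the length of the molecule. Of the 52, 43 (82.7%) shared at least 1 of their back-splice sites with another circRNA, against 59.9% of all circRNAs. These sites numbered 25: 10 in Adgrb3, 9 in Anks1b, 2 each in Homer1 and Grip1 and 1 each in Shank2 and Shank3. Other synaptic genes, described below, also lay above all circRNAs in both measures. For other postsynaptic scaffold genes, 70.8% of circRNAs shared a site and the median span was 19.1 kb. For glutamate receptors and adhesion partners these values were 71.4% and 20.0 kb. CircRNAs that share a site are not independent of each other. Since the table gives no strand, sites are named below by lower or upper coordinate.

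**Figure D4:**
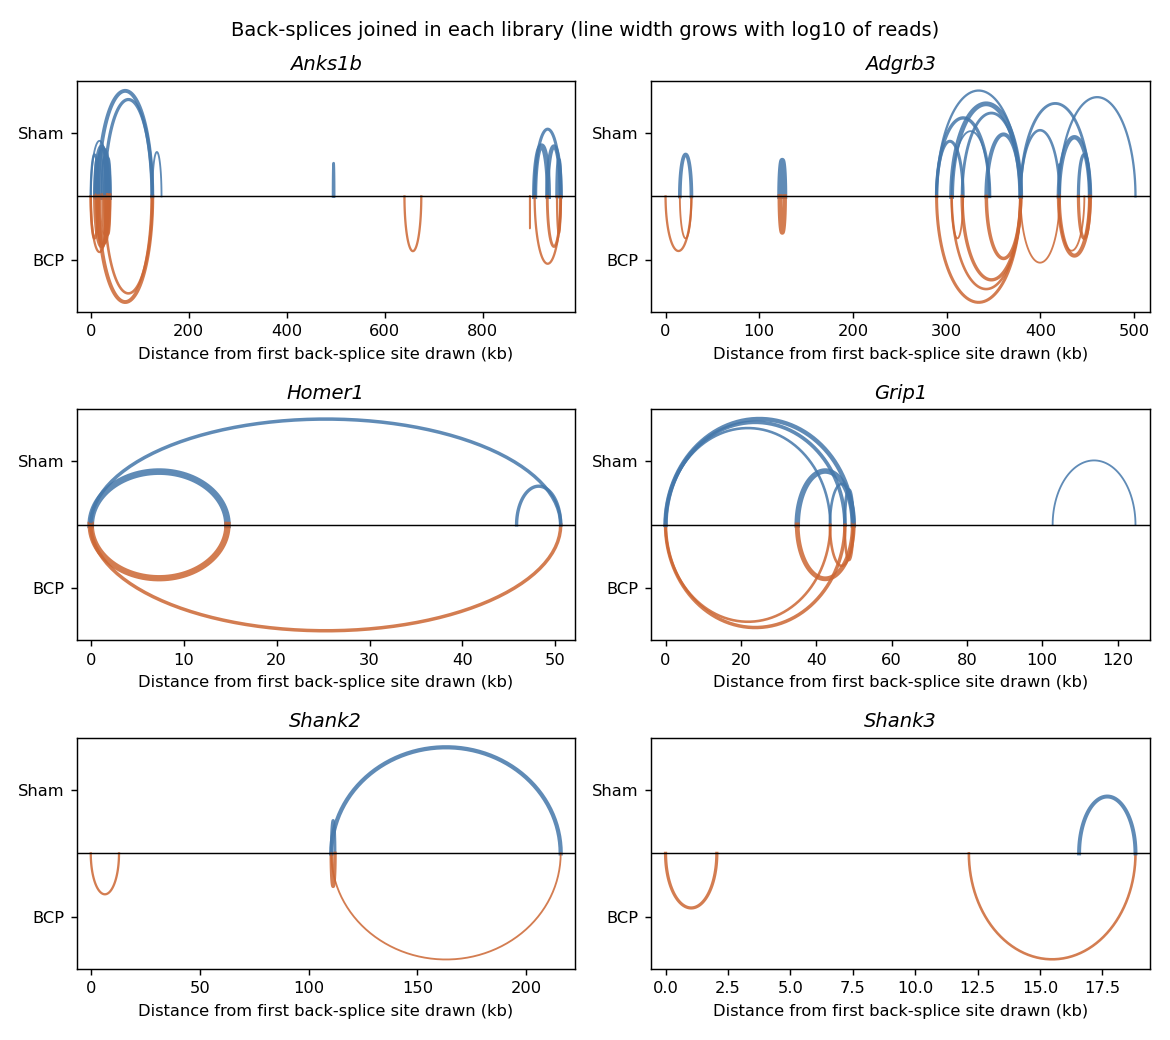
Each arc joins the 2 sites of a back-splice, with distance in kb from the first site drawn for the gene on the x axis, sham above and BCP below the line, width growing with log10 of reads and height with span. A distant Shank2 circRNA is left out. Anks1b shows a dense region at its lower end and another about 906 kb on, where BCP has fewer and thinner arcs.

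The circRNAs of Anks1b fell into separate regions when overlapping ones were joined, a grouping made after the values were seen. At the lower end (30699478 to 30843937) 10 circRNAs had 447 reads in sham and 259 in BCP, 1.20-fold lower (1.03 to 1.41). The far region (31605670 to 31658885) starts 906 kb further on, and its 4 circRNAs had 75 and 11 reads, a level 4.76-fold lower in BCP (2.51 to 9.93). The odds of a BCP read in the far region were 0.253 times those at the lower end (0.119 to 0.491). Without the circRNA listed in sham alone, the far region had 33 and 11 reads, 2.09-fold lower (1.03 to 4.59), and the odds ratio was 0.576 with an interval that held 1 (0.258 to 1.19). The difference between the regions thus rests on the 28.1 kb circRNA. Each of the other 3 had more sham reads: 17 and 5, 10 and 3, and 6 and 3. Between the regions, 3 circRNAs had 2 to 4 reads in all, each in a single library.

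Within a shared site, partners could be set against each other in the same library. At 11 sites of the set both a circRNA and the others at its site had at least 10 reads, which gave 25 comparisons. In 6 of these, at 4 sites, the interval of the odds ratio excluded 1. Over the table this held for 17.0% of 2084 comparisons, and for the set 24.0%. Where a site has only 2 partners, the same contrast is counted from either side. The intervals that excluded 1 were all at sites of the Shank2, Grip1 and Adgrb3 circRNAs lower by the size rule. The Grip1 circRNA was counted at both of its sites. Since the genes were picked with such ratios known, nothing is read from the 2 shares.

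At the lower Shank2 site, the 1.71 kb and 105 kb partners had 5 and 18 reads in sham and 9 and 2 in BCP. The odds ratio for the short partner was 14.5 (2.12 to 181), from 34 reads in all. The lower Grip1 site joined to 3 upper sites. Its 49.8 kb partner had 21 and 0 reads, while the 47.6 kb partner had 11 and 9 (ratio 1.17, 0.430 to 3.11) and the 43.7 kb partner 4 and 4. At the upper Grip1 site of the 49.8 kb circRNA, the other 3 partners together had 67 reads in sham and 38 in BCP. Both sites that this circRNA joins were therefore in use in the BCP library.

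In Adgrb3, the upper site of the 73.7 kb circRNA joined to 4 lower sites, with 52 sham and 27 BCP reads in all, a ratio of 0.744 (0.450 to 1.21). The 73.7 kb partner had 30 and 4 reads, and the other 3 together had 22 and 23, an odds ratio of 0.131 for the former (0.0288 to 0.459). Of these others, the 36.6 kb partner had 14 and 9 reads, the 62.5 kb partner 5 and 8, and the 89.7 kb partner 3 and 6. The lower site of the 73.7 kb circRNA had 32 and 6 reads, a ratio of 0.269 (0.0919 to 0.652), of which the other partners held 2 and 0 reads (40.5 kb) and 0 and 2 (12.3 kb). At the upper site of the leading Anks1b circRNAs, 5 partners had 418 and 238 reads, and the intervals of the 3 partners compared there held 1 (the odds ratio of the 7.71 kb one was 1.04, 0.746 to 1.45). The lower site of Homer1 joined to 2 upper sites, with 163 and 120 reads for the 14.7 kb and 9 and 9 for the 50.6 kb circRNA, an odds ratio of 1.36 for the latter (0.462 to 3.99).

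**Figure D5:**
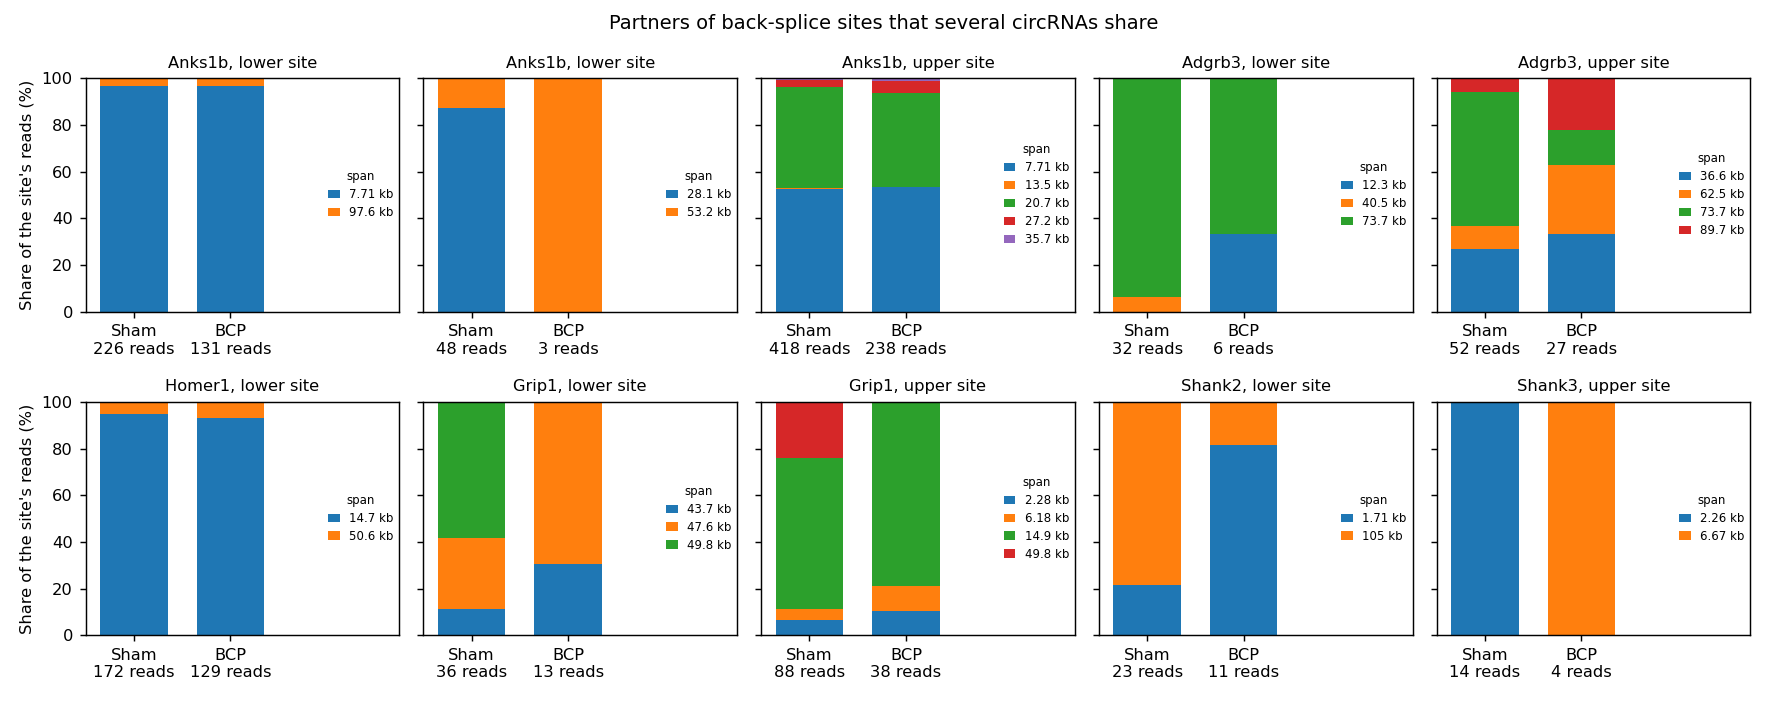
Share in percent of the reads of a back-splice site taken by each partner, named by span, in the sham and BCP libraries, for the 10 shared sites that belong to a circRNA lower in BCP by the size rule or to the leading circRNA of a gene, with the total reads of the site under each bar. The leading partner differs between libraries at the lower Shank2 site (5 and 18 reads in sham, 9 and 2 in BCP), the upper Adgrb3 site, the lower Grip1 site, the Shank3 site and the Anks1b site with 48 and 3 reads. It is the same at the other 5 sites, among them the Homer1 site, where the 14.7 kb partner had 163 and 120 reads.

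The other Adgrb3 circRNAs with at least 10 reads met neither side of the rule. The leading one had 372 CPM in sham (268 to 502) and 304 in BCP (195 to 453), 1.22-fold lower (0.722 to 2.11). A 33.2 kb circRNA (31734736 to 31767934) had 21 and 15 reads, a ratio of 1.02 (0.491 to 2.08), and a 12.3 kb circRNA inside it (31755619 to 31767934) had 7 and 7 reads, 61.9 and 88.8 CPM, a ratio of 1.43 (0.429 to 4.79). Of the 11 Adgrb3 circRNAs with under 10 reads, 6 were seen in sham alone with 2 to 8 reads and 3 in BCP alone with 2 or 3.

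Homer1 also had a 4.75 kb circRNA (chromosome 2, 22995852 to 23000600) with 8 reads in sham and 0 in BCP, too few for the rule. Grip1 had a 2.28 kb circRNA (64720268 to 64722547) with 6 and 4 reads and a 6.18 kb circRNA (64716367 to 64722547) with 4 and 4, and a 22.0 kb circRNA 103 kb beyond its first site with 2 and 0. Anks1b had 2 circRNAs near or over 100 kb: the first, of 111 kb (30714506 to 30825091), had 13 and 13 reads, a ratio of 1.43 (0.612 to 3.36), and another of 97.6 kb (30727478 to 30825091) had 7 and 4. Both met neither side of the rule, while the 105 kb circRNA of Shank2 was among the lower ones.

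The assignment of a Shank2 circRNA is doubtful. With 0 and 2 reads, it lay 1.41 Mb below the others (chromosome 1, 215934081 to 215939788), with 5 circRNAs of Nap1l4 between, and its gene field held 18 names, among them Ears2 and the cortactin gene Cttn. Without it Shank2 had a ratio of 0.873 (0.415 to 1.77).

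Other postsynaptic scaffold genes were set beside the 6 from a list of 36 gene symbols, of which 22 hosted 89 circRNAs. Their summed ratio was 1.000 (0.888 to 1.13; 684 and 477 reads). Of 32 circRNAs with enough reads, 2 were higher and 1 was lower in BCP, with a median log2 ratio of -0.04, beside 7.82% higher and 7.34% lower and a median of 0.02 over all 3502. The higher ones were of Dlgap3, which binds PSD-95 and Shank (chromosome 5, 145277839 to 145278897; 20 and 33 reads, 2.37-fold, 1.32 to 4.35), and Tanc1, a scaffold with ankyrin repeats (3 and 12 reads, 5.74-fold, 1.55 to 31.7). The lower one was of Anks1a, the paralog of Anks1b, with 11 reads in sham and 0 in BCP. The most abundant of the list, another circRNA of Anks1a, had 51 and 34 reads (1.05-fold lower, 0.665 to 1.67). The next, of Lrrc7, which encodes the PSD-95 partner densin, had 41 and 26 reads (1.10-fold lower, 0.657 to 1.87).

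Glutamate receptors and synaptic adhesion partners made a second list of 37 genes, of which 17 hosted 63 circRNAs. Their summed ratio was 0.824 (0.725 to 0.936; 668 and 384 reads), and 0 of 18 circRNAs were higher and 1 was lower, beside the same 7.82% and 7.34% of all, with a median log2 ratio of -0.10. The lower one was of the metabotropic receptor gene Grm8 (107 and 36 reads). The most abundant was of the kainate receptor gene Grik1, with 173 and 107 reads and a ratio of 0.887 (0.690 to 1.14). Summed by host, Grm8 (137 and 42 reads, ratio 0.440) and Ephb1 (97 and 33, 0.488) met the size rule as lower. Grik4 (11 and 24, 3.13) met it as higher, beside 8.06% higher and 8.01% lower of 2048 host gene sums. The summed ratio of the list thus mixes hosts that differ in direction, and it was not computed without Grm8 and Ephb1.

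Markers of cell types were counted as circRNA hosts alone. Neuronal genes hosted 20 circRNAs from 10 of 16 genes, with 495 and 315 reads and a ratio of 0.912 (0.790 to 1.05). Of 12 with enough reads, 2 were higher and 1 was lower in BCP, beside 7.82% and 7.34% of all. The higher ones were of Syt1 (4 and 10 reads) and Nefm (0 and 12), and the lower one of Elavl3 (52 and 0). Oligodendrocyte genes had 11 and 49 reads (4 of 12 genes) and microglia and macrophage genes 13 and 55 (3 of 11), so these sums were higher in BCP. They rest on few circRNAs: a circRNA of Mbp held 27 of the 49 reads, and Ikzf1 (43) and Dock8 (12) held all 55. Some circRNAs of these lists, such as those of Mog (3 and 0 reads) and Ptprc (2 and 0), had reads in sham alone. Astrocyte genes had 5 and 3 reads (1 of 8), and no circRNA was listed for skeletal muscle genes. Gfap, Aqp4, Aif1 and Cx3cr1, defining genes of astrocytes and microglia, hosted no listed circRNA. The part of cell makeup in the ratios of the 6 genes was not tested.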

How the data were processed

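The authors deposited back-splice read counts per circRNA for each library, and columns headed TPM that equal CPM (the count scaled to a column total of 1000000), to within 0.001, with 0 written as 0.001. Per the submitters' processing notes, CASAVA 1.8 and BWA were used with build rn6. The sources used here do not say which circRNA caller, read minimum or annotation was applied. RNase R and the caller decide which molecules are counted, so values do not describe linear mRNA. A read minimum drops thin circRNAs to 0, more so in the shallower library.

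Counts were scaled to column totals with Python 3.11.15 and SciPy 1.17.1. The size rule was computed on all 3502 circRNAs with at least 10 reads and tested on simulated data. The simulated counts varied by counting error alone, so they cannot show how the rule fares with variation between animals or libraries. With 1 library per group, no p-value was computed. Odds ratios are conditional estimates with exact intervals. Regions, shared-site comparisons and some alternatives were added after the data were seen. The 6 genes and all lists were chosen with earlier results of these data known. CircRNAs with at least 10 reads, leading ones, those at the edge of the rule and list members past it were named. Alternatives included size factors of DESeq2 1.42.0 (median of ratios) and TMM factors of edgeR 4.0.16. All 6 symbols matched the RefSeq gene table of GRCr8, used for names alone. Exons and introns were not used here. A further list of cell type markers is not reported here.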

Additional observations from a re-analysis of the deposited data

How the results depend on the processing

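The summed ratio of the 6 genes stayed below 1, with its interval below 1, in all 14 alternatives (0.740 to 0.871), which included leaving out each gene in turn. All of them use the same counts of genes picked with such ratios known, so they are no support for a decrease. None left out all 5 circRNAs lower by the size rule. With circRNAs of both libraries alone, the ratio was 0.892 for Grip1 and 0.806 for Adgrb3 with intervals that held 1, 2 circRNAs of the 6 genes were lower, and 0 of the other scaffold genes. The interval of Grip1 also held 1 after thinning of sham to the depth of BCP (0.693), as did those of Grip1 (0.724) and Adgrb3 (0.777) with each 0 taken as 1 hidden read. Without the most abundant circRNA of the gene, the ratio was 0.759 for Homer1, 4.01 for Shank2 (1.37 to 14.2) and 0.627 for Grip1 with an interval that held 1 (0.357 to 1.07), and Shank3 gave none, having 0 sham reads left. For Shank2 this took out the 105 kb circRNA lower in BCP, which left 5 sham reads. Its remaining BCP reads included the 2 of the circRNA of doubtful assignment. Of the 6 genes, 1 circRNA was higher and 7 were lower with a minimum of 5 reads or with none, 4 were lower with 20 reads, and 2 were higher and 8 lower without the interval. Of the other scaffold genes, 9 were higher and 4 lower with a minimum of 5 reads or with none, 1 higher and 0 lower with 20 reads, 1 higher with a 3-fold limit, 2 lower with median-of-ratios or TMM scaling, 0 lower after thinning and 5 lower without the interval. The cause was not tested, beyond the circRNAs that each alternative leaves out by construction. The share of all circRNAs called is not given for these other settings, so nothing is read from the counts. TMM moved every log2 ratio by -0.12. No paired analysis was possible because each group had 1 library. Depth limits the Shank genes most, with at most 23 reads in a library.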
